A study of Rattus norvegicus with 24 samples.

Results

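Glul, Oat, Slc1a2, Rhbg, Axin2, Tbx3, Lect2 and Gls2 are liver genes tied to the position of a hepatocyte along the lobule or to Wnt signalling, and they were followed in cultured primary rat hepatocytes. The 8 genes were taken by symbol, each through every array probe set that the platform annotation pairs with that symbol alone. A gene's level is the log2 value of its probe set with the highest mean over all arrays, and its other probe sets are given beside it. Of the 8 genes, 7 were measured, through 14 of the 31042 probe sets tested and as 7 of the 14217 genes that could be read. Rhbg, an ammonia transporter of the Rh family, had no probe set in the platform annotation used here.

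Blood crosses the liver lobule from the portal vein to the central vein, and hepatocytes along that path divide the work. Periportal hepatocytes make urea and glucose and break down glutamine, whereas the last rows of cells around the central vein capture the remaining ammonia by making glutamine. The pericentral programme is driven by Wnt ligands, largely from endothelial cells of the central vein, which stabilise beta-catenin and let it act with TCF and LEF factors on target genes such as Glul and Axin2.

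Hepatocytes were grown in collagen-coated wells either on 1 layer of collagen gel (monolayer) or between 2 layers (sandwich), the upper layer being laid on a day after seeding. All groups shared the same medium, which held serum, epidermal growth factor, insulin, glucagon and hydrocortisone, and contact with other liver cells was limited to what the isolated cells brought with them. In the labels the monolayer is the unstable, negative control and the sandwich the stable, positive one. RNA was taken at days 1, 2, 3 and 8 after the second layer, with 3 arrays per culture and day, which makes 8 groups and 24 arrays. The labels give neither the strain nor whether replicates came from separate animals or wells, so the p-values measure the spread between these samples, which may be technical.

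For 7 of the 8 genes RefSeq holds a start site window of 300 bases (250 before to 50 after the start, build GRCr8), in 10 windows in all, all but Tbx3. These windows were searched on both strands for CTTTGAA and for its variants CTTTGAT or CTTTGTA as well as for CTTTGTT, the core letters that TCF and LEF factors recognise, and no match overlapped another. The 4 windows with a match are shown because they let the members be compared at the letters that beta-catenin's partner factors read. Each is written 5′ to 3′ on its gene's strand, which is the plus strand for all 4, with the matches in capitals.
Axin2, chr10:94398535-94398834: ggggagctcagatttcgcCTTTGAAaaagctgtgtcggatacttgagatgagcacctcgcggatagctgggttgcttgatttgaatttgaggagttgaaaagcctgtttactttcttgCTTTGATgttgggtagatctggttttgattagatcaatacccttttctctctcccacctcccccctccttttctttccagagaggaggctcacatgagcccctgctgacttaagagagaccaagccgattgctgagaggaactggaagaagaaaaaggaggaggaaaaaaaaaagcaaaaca
Glul, chr13:68519250-68519549: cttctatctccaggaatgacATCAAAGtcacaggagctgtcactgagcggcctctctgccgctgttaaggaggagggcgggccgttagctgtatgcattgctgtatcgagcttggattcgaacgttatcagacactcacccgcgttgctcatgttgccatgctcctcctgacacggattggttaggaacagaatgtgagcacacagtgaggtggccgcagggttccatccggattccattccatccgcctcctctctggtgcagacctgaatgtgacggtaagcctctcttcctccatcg
Slc1a2, chr3:109507697-109507996: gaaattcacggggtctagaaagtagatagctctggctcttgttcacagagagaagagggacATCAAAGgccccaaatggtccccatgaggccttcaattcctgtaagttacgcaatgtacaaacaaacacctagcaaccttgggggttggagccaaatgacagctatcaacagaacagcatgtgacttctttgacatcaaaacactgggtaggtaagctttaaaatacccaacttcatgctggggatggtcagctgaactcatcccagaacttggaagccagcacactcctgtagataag
Lect2, chr17:8049784-8050083: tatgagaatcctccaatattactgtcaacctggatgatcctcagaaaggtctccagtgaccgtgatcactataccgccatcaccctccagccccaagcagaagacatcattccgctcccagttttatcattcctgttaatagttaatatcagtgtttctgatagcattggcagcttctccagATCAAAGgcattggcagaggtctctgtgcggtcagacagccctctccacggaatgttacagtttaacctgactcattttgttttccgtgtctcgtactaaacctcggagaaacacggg

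Axin2 held 2 matches, CTTTGAA at bases -232 to -226 and CTTTGAT at bases -132 to -126 from the start. Glul held ATCAAAG, the other strand of CTTTGAT, at bases -230 to -224 of the first of its 2 windows, Slc1a2 held it at bases -189 to -183 of the second of its 2, and Lect2 held it at bases -68 to -62. The windows of Oat, Gls2 and Rhbg held none. Among all 33469 windows of that length, 17.1% held at least 1 of the 4 motifs and 2.12% held 2 or more matches, so a single match is common. A match describes letters in a window, not a site that is used, and the enhancers of these genes may lie elsewhere.

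Over 8 days the measured genes did not follow 1 course, as the plot of levels in each array for Glul, Oat, Gls2 and Lect2 shows for those that moved most. Glul fell in both cultures and ended at a similar level in both. Oat fell in both but stood higher in the sandwich from day 3, whereas Gls2 and Lect2 fell in the monolayer and rose in the sandwich. Axin2, Tbx3 and Slc1a2 moved within a narrow band. Values below are log2 levels of 1 probe set, which can be compared between groups but not between genes.

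**Figure D1:**
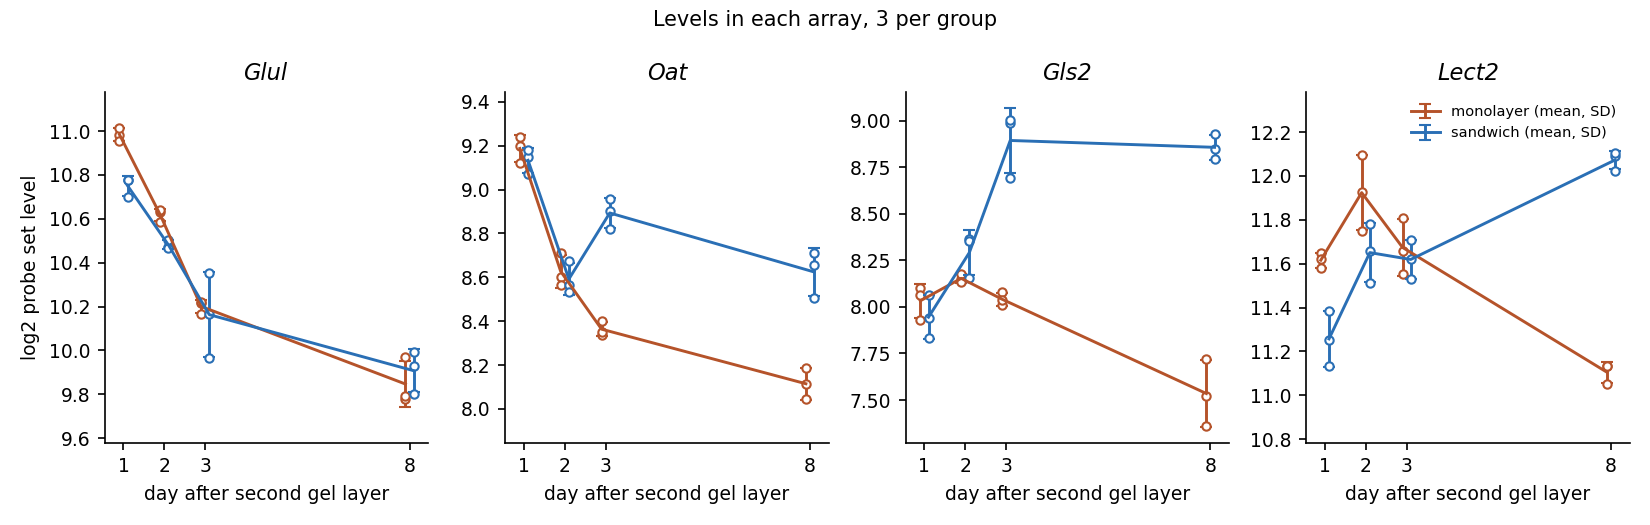
Log2 probe set levels of Glul, Oat, Gls2 and Lect2 against the day after the second gel layer, with 1 open circle per array, lines through group means and bars of 1 SD (n = 3). Glul lay between 9.78 and 9.99 in all 6 arrays of day 8, whereas the day 8 arrays of the other genes separated by culture.

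Glul encodes glutamine synthetase, which joins ammonia to glutamate in pericentral hepatocytes. In the monolayer its level was 10.98, 10.96 and 11.02 on day 1, 10.63, 10.64 and 10.59 on day 2, 10.17, 10.21 and 10.22 on day 3, and 9.97, 9.78 and 9.79 on day 8. In the sandwich it was 10.70, 10.78 and 10.78 on day 1, 10.47, 10.47 and 10.50 on day 2, 9.97, 10.35 and 10.17 on day 3, and 9.80, 9.99 and 9.93 on day 8. Each later day lay below the one before it, with no overlap between arrays except between days 3 and 8 of the sandwich. From day 1 to day 8 Glul fell by 1.14 ± 0.09 (SE) on the log2 scale in the monolayer, 2.20-fold (n = 3 per group, adjusted p = 1.14e-10 by limma), and by 0.84 ± 0.09 in the sandwich, 1.79-fold (adjusted p = 3.62e-08).

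In the monolayer every step of the decline of Glul passed the test, by 0.37 from day 1 to day 2 (adjusted p = 0.0107), 0.42 from day 2 to day 3 (adjusted p = 0.00395) and 0.35 from day 3 to day 8 (adjusted p = 0.00577). The last of these steps was lost with the mean of all Glul probe sets, which fell by 0.24 (adjusted p = 0.0565). In the sandwich only the step from day 2 to day 3 passed (fell by 0.32, adjusted p = 0.0438), and it no longer passed when any 1 of 5 of the 6 arrays was left out, all but the second array of day 3. It was also lost with centred arrays (adjusted p = 0.0885) and with the compared groups only (adjusted p = 0.246). The steps from day 1 to day 2 and from day 3 to day 8 passed in several alternatives, with adjusted p there from 0.0298 to 0.0357 and from 0.00998 to 0.0484. The sandwich decline is therefore not placed at 1 step. The test did not tell the cultures apart on any day by the Glul probe set read. All 3 sandwich arrays lay below all 3 monolayer arrays at days 1 and 2, but the differences of -0.23 and -0.14 did not pass the test (adjusted p = 0.24 and 0.54). At day 8 the difference was 0.06, with a 95% interval from -0.12 to 0.24. The fall from day 1 to day 8 was smaller in the sandwich by 0.29 ± 0.12, which did not pass (adjusted p = 0.12, interval 0.04 to 0.55).

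The other Glul probe sets were of unequal likeness to the one read. Over the 8 group means a second probe set followed it with r = 0.996, and from day 1 to day 8 it fell by 1.09 in the monolayer and 0.80 in the sandwich (adjusted p = 6.32e-09 and 1.32e-06). The remaining probe set followed it with r = 0.64 only: it fell by 0.38 in the monolayer (adjusted p = 0.00969), gave -0.08 in the sandwich (adjusted p = 0.70), and was lower in the sandwich at day 3 by -0.34 ± 0.11 (adjusted p = 0.0361) with overlapping arrays. The decline in the sandwich therefore rests on 2 of the 3 Glul probe sets. In each of the other probe sets, as in the one read, all sandwich arrays lay below all monolayer arrays at days 1 and 2. For the probe set with r = 0.64, the day 1 means were 9.38 in the monolayer and 8.97 in the sandwich.

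Oat encodes ornithine aminotransferase, a mitochondrial enzyme that passes ornithine towards glutamate and, in liver, is held in the same pericentral cells as glutamine synthetase. Its monolayer level was 9.24, 9.20 and 9.12 on day 1, 8.60, 8.56 and 8.71 on day 2, 8.34, 8.40 and 8.35 on day 3, and 8.04, 8.19 and 8.11 on day 8. Its sandwich level was 9.07, 9.15 and 9.18 on day 1, 8.57, 8.53 and 8.68 on day 2, 8.90, 8.96 and 8.82 on day 3, and 8.50, 8.71 and 8.66 on day 8. The arrays of the cultures overlapped at days 1 and 2, and at days 3 and 8 every sandwich array lay above every monolayer array. Oat was higher in the sandwich by 0.53 ± 0.08 at day 3, 1.44-fold (adjusted p = 1.66e-05), and by 0.51 ± 0.08 at day 8, 1.42-fold (adjusted p = 1.49e-05).

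From day 1 to day 2 Oat fell alike in size in both cultures, by 0.56 in the monolayer and 0.54 in the sandwich (adjusted p = 4.30e-05 and 4.32e-05). Over the whole period it fell by 1.07 in the monolayer, 2.10-fold (adjusted p = 6.40e-11), and by 0.51 in the sandwich, 1.42-fold (adjusted p = 1.80e-05). The difference between those changes was 0.56 ± 0.11 (adjusted p = 6.23e-04). In between, the sandwich rose by 0.30 from day 2 to day 3 (adjusted p = 0.0358) and fell by 0.27 from day 3 to day 8 (adjusted p = 0.0256), and the monolayer fell by 0.25 from day 3 to day 8 (adjusted p = 0.0369). These smaller steps were each lost without some single arrays: the rise without the first or second sandwich array of day 2 or of day 3, the sandwich fall without the first or second array of day 3 or the first of day 8, and the monolayer fall without any array but the second of day 8.

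Slc1a2 encodes a sodium-driven glutamate transporter, known best from astrocytes and, in liver, from the pericentral cells that make glutamine. Its level lay below 5.62, the median of all values, where background is unknown because the table holds no detection calls, so no fold is given. The group means ran from 4.57 to 4.81, and every group overlapped the next in order. At day 8 the monolayer arrays read 4.44, 4.60 and 4.68 and the sandwich arrays 4.98, 4.82 and 4.64, a difference of 0.24 ± 0.09 that did not pass the test (adjusted p = 0.0557). It passed in 5 of 14 alternative analyses, with adjusted p between 0.0140 and 0.29 over all 14. Its other probe set lay lower still, between 3.52 and 3.84 in group means, and differed by 0.04 at day 8 (adjusted p = 0.87).

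Gls2 encodes the liver-type glutaminase, which frees ammonia from glutamine beside the urea cycle enzymes of periportal hepatocytes, the opposite pole of glutamine metabolism to Glul. Its monolayer level was 8.10, 8.06 and 7.93 on day 1, 8.15, 8.18 and 8.13 on day 2, 8.01, 8.08 and 8.04 on day 3, and 7.52, 7.72 and 7.36 on day 8. Its sandwich level was 7.94, 7.83 and 8.06 on day 1, 8.37, 8.15 and 8.36 on day 2, 8.99, 9.00 and 8.69 on day 3, and 8.85, 8.93 and 8.79 on day 8. Days 1 and 2 overlapped between the cultures, and from day 3 all sandwich arrays were the higher ones. Gls2 was higher in the sandwich by 0.85 ± 0.10 at day 3, 1.81-fold (adjusted p = 4.29e-07), and by 1.32 ± 0.10 at day 8, 2.50-fold (adjusted p = 1.02e-10).

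The culture gap in Gls2 opened from both sides. In the sandwich it rose by 0.91 from day 1 to day 8, 1.88-fold (adjusted p = 9.58e-08), most of it from day 2 to day 3 (0.60, adjusted p = 7.76e-04), with no further step called to day 8 (-0.04, adjusted p = 0.91). In the monolayer it fell by 0.50 over the same days, 1.41-fold (adjusted p = 2.75e-04), and the called step there was from day 3 to day 8 (fell by 0.51, adjusted p = 6.89e-04). The first sandwich step, 0.35 from day 1 to day 2 (adjusted p = 0.0352), was lost without the first or second sandwich array of day 1 or the first or last of day 2. The changes from day 1 to day 8 differed between the cultures by 1.41 ± 0.14 (adjusted p = 4.67e-08), the widest such difference among the 7 genes.

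Lect2 encodes a protein that hepatocytes secrete into blood, first described as a leukocyte chemoattractant and known as a target of beta-catenin in liver. Its monolayer level was 11.58, 11.65 and 11.62 on day 1, 11.75, 11.93 and 12.09 on day 2, 11.66, 11.56 and 11.81 on day 3, and 11.13, 11.13 and 11.05 on day 8. Its sandwich level was 11.13, 11.39 and 11.25 on day 1, 11.66, 11.78 and 11.51 on day 2, 11.53, 11.71 and 11.62 on day 3, and 12.02, 12.09 and 12.10 on day 8. The order of the cultures turned over: sandwich arrays were all lower at day 1 and all higher at day 8, and they overlapped at days 2 and 3. At day 1 the difference was -0.36 ± 0.10 and just missed the threshold (adjusted p = 0.0533), and at day 8 it was 0.97 ± 0.10, 1.96-fold (adjusted p = 1.43e-08).

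In the sandwich Lect2 rose by 0.82 from day 1 to day 8, 1.76-fold (adjusted p = 3.17e-07), by 0.39 in the first step to day 2 (adjusted p = 0.0106) and 0.45 from day 3 to day 8 (adjusted p = 0.00181). The first of these steps was lost without the first sandwich array of day 1 or the second of day 2. In the monolayer Lect2 rose by 0.31 from day 1 to day 2, with no overlap between arrays, but this did not pass the test. It was called with the filter at the median, the trended and robust variance, the replicate block, or without monolayer replicate 1 of day 2. Adjusted p in those fits ran from 0.0227 to 0.0417. Over the whole period Lect2 fell in the monolayer by 0.51, 1.42-fold (adjusted p = 1.38e-04), through a fall of 0.57 from day 3 to day 8 (adjusted p = 1.20e-04). The difference between the changes was 1.33 ± 0.14 (adjusted p = 7.01e-08). Its second probe set followed the first over the group means with r = 0.98 and gave 0.97 ± 0.13 at day 8 (adjusted p = 2.01e-06).

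Axin2 encodes a scaffold of the complex that degrades beta-catenin and is induced by the pathway it restrains, so that it serves as a general readout of Wnt activity. In the monolayer its arrays lay between 5.85 and 6.51 over days 1 to 3 and read 6.08, 6.02 and 6.17 at day 8. In the sandwich they lay between 6.09 and 6.44 over days 1 to 3 and read 6.56, 6.29 and 6.56 at day 8. The groups overlapped at days 1, 2 and 3 and separated at day 8, when Axin2 was higher in the sandwich by 0.38 ± 0.12, 1.30-fold (adjusted p = 0.0247). That call was lost without the first or second monolayer array of day 8 or the first or last sandwich array of day 8 (adjusted p from 0.0591 to 0.0976). No change with time passed in either culture, and from day 1 to day 8 it gave 0.04 in the monolayer and 0.24 in the sandwich (adjusted p = 0.88 and 0.20). Neither was the day 8 gap shown to differ from that of day 1 (0.20 ± 0.18, adjusted p = 0.56).

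Tbx3 encodes a T-box transcriptional repressor that beta-catenin can induce in liver cells. The group means of the probe set read ran from 6.14 to 6.29, single arrays from 5.89 to 6.50, and all 8 groups overlapped their neighbours in order. No comparison passed the test, and at day 8 the difference was -0.02 ± 0.13 with a 95% interval from -0.29 to 0.26. The 4 Tbx3 probe sets did not move together: over group means the other 3 correlated with it at -0.36 to -0.56. Of them, 1 was higher in the sandwich at day 8 by 0.30 ± 0.11 at the edge of the threshold (adjusted p = 0.0498), and another, which lies below the median of all values, fell by 0.36 from day 1 to day 8 in the monolayer (adjusted p = 0.00274).

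**Figure D2:**
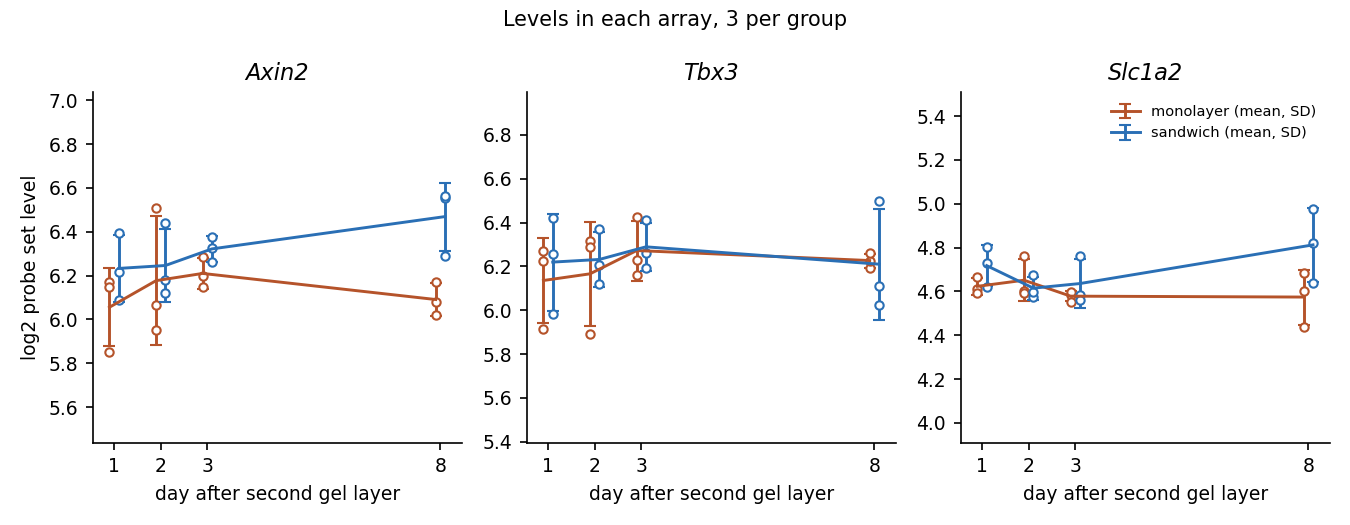
Log2 probe set levels of Axin2, Tbx3 and Slc1a2 against the day after the second gel layer, with 1 open circle per array, lines through group means and bars of 1 SD (n = 3). The axes span at least 1.6 log2 units. Only the day 8 arrays of Axin2 separate by culture.

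Set side by side, the 7 genes did not share 1 response to the second gel layer. At day 1 no gene passed the test, where 1.78% of all probe sets did, although 2 had an unadjusted p under 0.05 and the arrays of 2 (Glul and Lect2) did not overlap, as for 17.6% of all probe sets. At day 2 again 0 passed (5.83% of all probe sets), 1 had an unadjusted p under 0.05, and the arrays of 1 did not overlap (19.2%). With other limma settings Lect2 was called lower in the sandwich at day 1 in 6 of them, and at day 2 under a trended, robust variance. At day 3 Oat and Gls2 were higher, 2 of 7 genes against 16.5% of probe sets called and 7.7% called higher, and the arrays of the same 2 genes did not overlap (29.1% of all probe sets). At day 8 Oat, Gls2, Lect2 and Axin2 were higher, 4 of 7 against 27.5% called and 11.9% called higher, and the arrays of these 4 did not overlap (37.6% of all probe sets). Read as the members were, by 1 probe set per gene, 366 of 14217 genes were called at day 1 and 1233 at day 2. At day 3 3229 were called and at day 8 5158, a larger share than among all probe sets, many of which carry no symbol. The median difference of the 7 genes at day 8 was 0.38, and that of all 14217 genes was 0.0030.

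**Figure D3:**
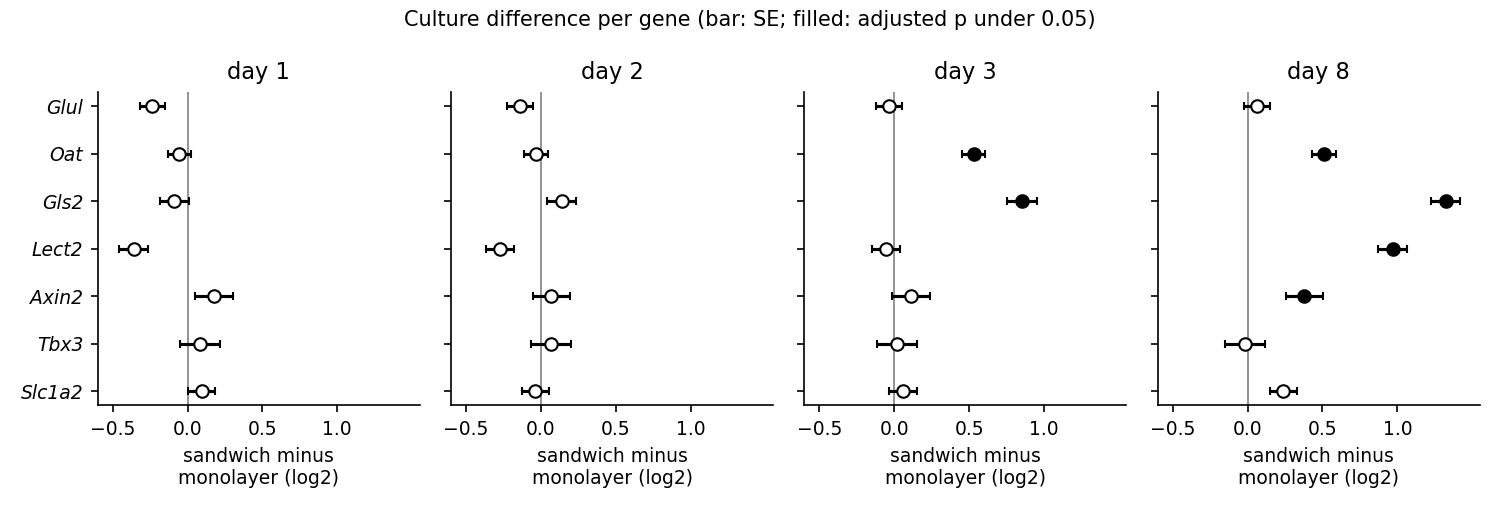
Difference of each measured gene between sandwich and monolayer on the log2 scale at each day, with bars of 1 SE and filled circles where the adjusted p was under 0.05. No gene was called at days 1 and 2, Oat and Gls2 were called at day 3, and Oat, Gls2, Lect2 and Axin2 at day 8.

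Over time, 4 of 7 genes fell in the monolayer from day 1 to day 8 (Glul, Oat, Lect2 and Gls2), against 30.8% of probe sets called and 15.8% called lower. By steps, 2 fell from day 1 to day 2 (5.01% of probe sets called), 1 from day 2 to day 3 (5.03%) and 4 from day 3 to day 8 (12.5%). In the sandwich 4 were called from day 1 to day 8, with Lect2 and Gls2 higher and Glul and Oat lower, against 24.8% called, 11.6% higher and 13.2% lower. By steps there, 3 were called from day 1 to day 2 (5.81%), 3 from day 2 to day 3 (2.85%) and 2 from day 3 to day 8 (11.2%). The signed change from day 1 to day 8 was higher in the sandwich for Oat, Lect2 and Gls2, 3 of 7 against 15.6% called and 7.8% called higher. The same 3 passed the culture by day interaction, against 14.9%. Its F values were 17.1 for Oat (adjusted p = 9.90e-05), 41.1 for Lect2 (adjusted p = 1.31e-07) and 43.1 for Gls2 (adjusted p = 8.93e-08), and 2.17 for Glul (adjusted p = 0.38). By genes read by 1 probe set each, 5495 of 14217 were called from day 1 to day 8 in the monolayer and 4512 in the sandwich. For the steps in order, 992, 1032 and 2422 genes were called in the monolayer and 1158, 552 and 2148 in the sandwich. The difference of the changes was called for 3104 genes and the interaction for 3021. These comparisons share arrays, since the day 8 and day 1 groups enter several of them.

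The order of the 8 groups differed from gene to gene. Gls2 was highest in the sandwich at days 3 and 8, which overlapped, above the day 2 groups of both cultures, and lowest in the monolayer at day 8, which overlapped no other group. Oat was highest at day 1 in both cultures, followed by the sandwich at day 3, and lowest in the monolayer at day 8. Lect2 was highest in the sandwich at day 8, and lowest in the monolayer at day 8 and the sandwich at day 1, which overlapped. Glul was highest in the monolayer at day 1 and lowest in the groups of days 3 and 8, among which the sandwich at day 3 overlapped the other 3 and the monolayer at day 3 lay above both cultures at day 8.

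Across the 8 group means, as a description over points that share arrays, days and normalization, Glul and Oat gave r = 0.76, Lect2 and Gls2 0.70, and Axin2 and Gls2 0.83. Glul gave -0.21 with Gls2 and -0.46 with Axin2. Among up to 1819 genes whose mean reached the median of all values and whose group means spanned at least 1 log2 unit, the 3 courses most like Glul were those of Papola (r = 0.990), Cxcl9 (0.988) and Taf5 (0.986). For Oat they were Gstk1 (0.988), Prlr (0.982) and Agt (0.965), the gene of angiotensinogen. For Gls2 they were Etfrf1 (0.989), Agxt (0.984), an aminotransferase of glyoxylate metabolism, and Slc6a13 (0.980). For Lect2 they were AA926063 (0.967), Abhd2 (0.950) and Cxcl1 (0.932). Axin2, Tbx3 and Slc1a2 spanned under 0.42 log2 units in their group means, less than the 1 unit asked of the candidates, and their most alike genes were Fndc10 (0.956), Gk (0.955) and Scp2 (0.950) for Axin2, Tp53inp2 (0.947), Marveld1 (0.830) and Npw (0.788) for Tbx3, and Slc25a22 (0.957), Cyp8b1 (0.949) and Anxa8 (0.918) for Slc1a2.

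Against that background, 24 of 27 other genes of glutamine, glutamate and ammonia handling were measured. In the sandwich 3 were higher and 1 lower at day 2, 6 higher at day 3, and 12 higher and 1 lower at day 8, with a median difference of 0.28. Of all probe sets, 5.83% were called at day 2 and 1.87% called higher, 7.7% were called higher at day 3, and 11.9% were called higher and 15.6% lower at day 8. Among all 14217 genes, 1233, 3229 and 5158 were called in either direction on those days. The single genes called lower depended on the setting: at day 2 their number was 0 without monolayer replicate 2 or sandwich replicate 3 of that day and 2 with array weights or the beta-actin covariate described with the markers, at day 3 1 was called with that covariate, the filter at the median, the replicate block or without sandwich replicate 1, and at day 8 the number was 0 with centred arrays or without monolayer replicate 1 or 2 or sandwich replicate 3. Got1, the cytosolic aspartate aminotransferase, was higher at day 8 by 3.11 ± 0.10, 8.65-fold (adjusted p = 4.64e-17). Car5a, the mitochondrial carbonic anhydrase that supplies bicarbonate for urea synthesis, was higher by 2.10 ± 0.10, and Slc25a15, the mitochondrial ornithine carrier, by 2.12 ± 0.16 (adjusted p = 6.32e-14 and 8.43e-11). Gpt, alanine aminotransferase, was higher by 1.52 ± 0.11 (adjusted p = 5.20e-11), and Glud1, which interconverts glutamate with 2-oxoglutarate and ammonia, by 0.63 ± 0.09 (adjusted p = 8.91e-06). Gls2 and Oat thus stood among genes of nitrogen handling of which 12 of 24 were also higher in the sandwich at day 8. Glul did not share that culture difference.

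Other zonated genes of both poles of the lobule were counted beside the members, without a test between the poles. Among all 14217 genes, 366, 1233, 3229 and 5158 were called in either direction between the cultures at days 1, 2, 3 and 8. Of 23 measured periportal genes, 3 were already higher in the sandwich on day 1, and the number was 12 on day 2, 17 on day 3 and 19 on day 8. Of all probe sets, 0.573%, 1.87%, 7.7% and 11.9% were called higher on those days. Those called were all higher, but with array weights 1 was called lower at day 1, and at day 2 1 was with quantile normalization, with the replicate block, and without monolayer replicate 1 or sandwich replicate 3 of that day. Their median difference at day 8 was 2.06. Among them, Cps1, the entry enzyme of the urea cycle, was higher by 2.06 ± 0.13 (adjusted p = 6.55e-12), Arg1, its last enzyme, by 2.13 ± 0.11 (adjusted p = 1.32e-13), Asl by 2.20 ± 0.09 (adjusted p = 1.36e-15) and Fbp1, of gluconeogenesis, by 2.83 ± 0.10 (adjusted p = 1.61e-16). Of 20 measured pericentral genes, 2 were called at day 1 and 2 at day 2, all lower in the sandwich, 9 higher and 2 lower at day 3, and 9 higher and 4 lower at day 8, with a median of 0.17, while 1.78%, 5.83%, 16.5% and 27.5% of all probe sets were called in either direction. The 2 called lower became 1 at day 1 without monolayer replicate 2 or 3 or sandwich replicate 1 or 2, at day 2 with centred arrays, the compared groups only, or without replicate 2 or 3 of either culture, and at day 3 with centred arrays, the compared groups only, or without replicate 1 or 3 of either culture. With probe sets at or above the median only, 4 were called lower at day 3, and at day 2 1 was called higher with that filter, quantile normalization, the trended and robust variance or without sandwich replicate 2, and 2 with array weights. Cyp2e1 was higher at day 8 by 2.12 ± 0.18 (adjusted p = 1.46e-09), Cyp27a1 by 1.21 ± 0.09 (adjusted p = 4.39e-11) and Cyp8b1 by 2.94 ± 0.12 (adjusted p = 2.04e-15), whereas Aldh1a1 was lower by -1.55 ± 0.09 (adjusted p = 1.06e-12). Cyp1a2, which metabolises xenobiotics, fell from day 1 to day 8 by 1.63 in the monolayer and 1.51 in the sandwich (adjusted p = 1.31e-12 and 9.79e-12), and at day 8 the cultures differed by 0.15 ± 0.10 (adjusted p = 0.31).

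**Figure D4:**
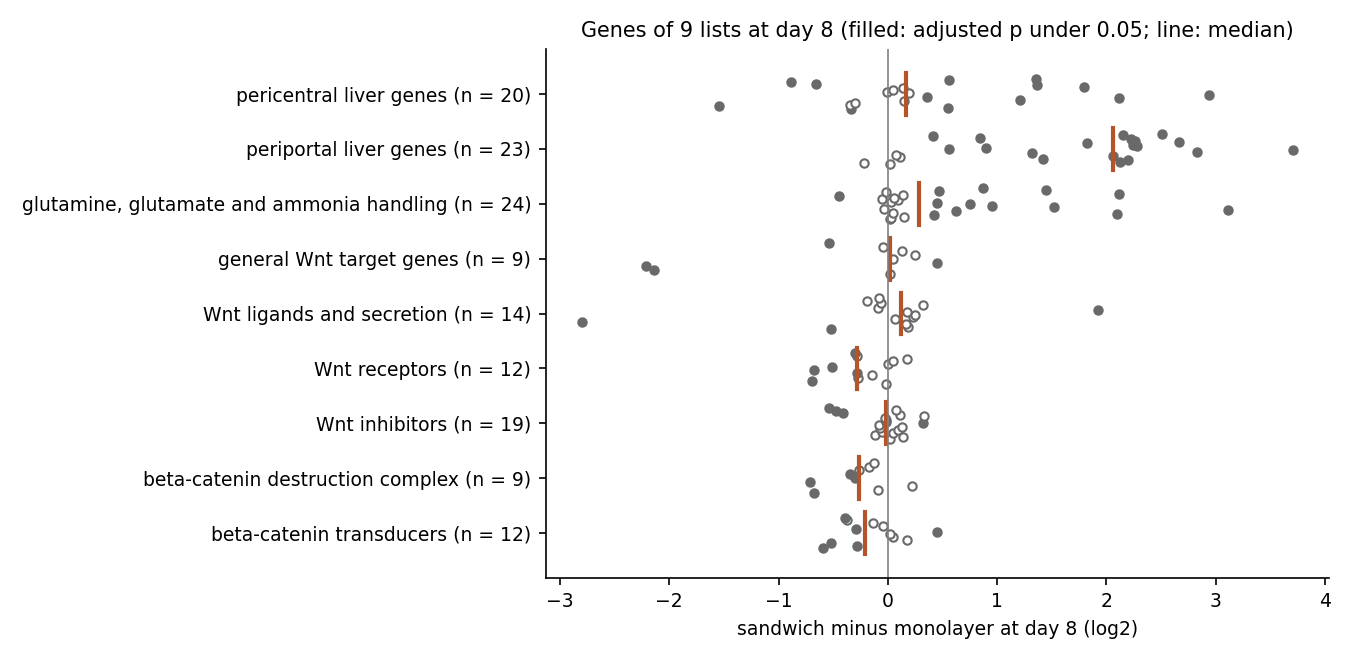
Difference between sandwich and monolayer at day 8 on the log2 scale for the measured genes of 9 lists, with 1 circle per gene, filled where the adjusted p was under 0.05, and a line at the list's median. Some genes stand on more than 1 list. The periportal median is 2.06 and the pericentral median 0.17, and no periportal gene was called lower.

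Of 66 measured genes on 5 lists of the Wnt pathway itself, 22 were called at day 8, 3 higher and 19 lower in the sandwich, while 27.5% of all probe sets were called, 11.9% higher and 15.6% lower. The count called ranged from 16 to 24 over the alternatives, with 1 to 4 higher and 13 to 20 lower. By genes read by 1 probe set each, as these were, 5158 of 14217 were called at day 8. The 22 of 66 therefore do not exceed the share of all genes. Of 14 measured ligands and secretion factors, 1 was higher and 2 lower. A second was called higher with quantile normalization, centred arrays, the replicate block, or without replicate 2 of either culture at day 8, and 0 were called lower when probe sets under the median of all values were filtered out. Wls, which carries Wnt proteins to the cell surface, read 7.11 ± 0.37 (SD, n = 3) in the monolayer and 4.31 ± 0.09 in the sandwich (difference -2.80 ± 0.15, adjusted p = 3.18e-13). The ligand gene Wnt4 read 5.46 ± 0.04 and 7.38 ± 0.15 (difference 1.92 ± 0.15, adjusted p = 1.37e-10), and Porcn, which lipid-modifies Wnt proteins, differed by -0.52 ± 0.11 (adjusted p = 5.99e-04). Wls rose in the monolayer from day 1 to day 8 by 3.25 (adjusted p = 1.66e-14), and Wnt4 rose in the sandwich by 2.15 (adjusted p = 2.64e-11).

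Of 12 receptors, 5 were called at day 8, all lower in the sandwich, with Fzd6 at -0.68 ± 0.10 and Fzd2 at -0.69 ± 0.13 (adjusted p = 8.05e-06 and 1.56e-04). For this and the following lists, 11.9% of all probe sets were called higher at day 8 and 15.6% lower. By genes read by 1 probe set each, 5158 of 14217 were called in either direction. Of 9 genes of the destruction complex, which marks beta-catenin for degradation, 4 were called, all lower, with Apc at -0.68 ± 0.11 and Csnk1a1 at -0.72 ± 0.09 (adjusted p = 4.33e-05 and 7.23e-07). Their number was 2 with centred arrays, the compared groups only or array weights, and without monolayer replicate 1 or sandwich replicate 3 of day 8. Of 12 transducers, 1 was higher and 5 lower, and beta-catenin's own gene, Ctnnb1, was lower by -0.52 ± 0.07 (adjusted p = 3.51e-06). The transducers called lower numbered 3 with quantile normalization, the compared groups only, or without monolayer replicate 1 or sandwich replicate 2 or 3 of day 8, and 2 without monolayer replicate 3. The 1 called higher was lost without sandwich replicate 3 and by the filter at the median of all values. Tcf7l2 differed by -0.38 ± 0.16 (adjusted p = 0.081). Of 19 inhibitors, 1 was higher and 3 lower, among them Tle3 at -0.41 ± 0.08 (adjusted p = 3.03e-04). The 1 higher was not called with that filter, with the beta-actin covariate, or without monolayer replicate 2 or 3 or sandwich replicate 1 or 2.

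Of 9 general Wnt target genes beside Axin2 and Tbx3, 1 was higher and 3 lower at day 8, and the 1 higher was lost by the filter at the median and without sandwich replicate 3. The shares of all probe sets were 11.9% higher and 15.6% lower, and 5158 of 14217 genes were called in either direction. Ccnd1, which drives entry into the cell cycle, was lower by -2.14 ± 0.16 and the adhesion receptor gene Cd44 by -2.22 ± 0.11 (adjusted p = 1.37e-10 and 3.09e-14), and both respond to many signals besides Wnt. The feedback inhibitor genes Znrf3 and Nkd1 and the receptor gene Lgr5, 3 targets that track the pathway more closely, lay below the median of all values. Znrf3 was lower by -0.53 ± 0.18 (adjusted p = 0.0299), a call lost in 7 alternative analyses, and Nkd1 and Lgr5 gave 0.13 ± 0.11 and 0.05 ± 0.08 (adjusted p = 0.44 and 0.72). Axin2 and Znrf3 thus lay on opposite sides at day 8, both close to the threshold.

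The hepatocyte identity of the cultures was checked with marker genes. All 7 measured hepatocyte markers stood at or above the median of all values in every group, and 5 of them were higher in the sandwich at day 8, among them Hnf4a by 0.54 ± 0.10 (adjusted p = 1.50e-04). In bulk RNA, fewer cells of a type and less RNA per cell cannot be told apart. Of all probe sets, 0.573%, 1.87%, 7.7% and 11.9% were called higher in the sandwich at days 1, 2, 3 and 8, and 15.6% lower at day 8. Among all 14217 genes, 3229 were called in either direction at day 3 and 5158 at day 8. Macrophage markers were higher in the sandwich at day 3 (8 of 9), when Oat and Gls2 were first called, and their summed level on the log2 scale was 10.09 to 10.18 in the monolayer and 10.80 to 10.92 in the sandwich. At the other days 1 of the 9 was called higher, and at day 8 1 was lower, yet the summed level also separated the cultures: 10.85 to 10.89 against 11.16 to 11.26 in the sandwich at day 1, 10.46 to 10.55 against 10.82 to 10.95 at day 2, and 10.39 to 10.61 against 10.73 to 10.92 at day 8. That sum adds unlogged values and is weighted to Cd14, with a mean of 9.58 where the next highest marker, C1qb, had 7.38. The mean log2 level of the 9 markers overlapped between the cultures at day 1 (6.79 to 6.88 against 6.87 to 6.99) and day 8 (6.84 to 7.03 against 6.89 to 7.07). It separated them at days 2 and 3. Cholangiocyte markers Krt7 and Krt19 were lower in the sandwich at day 8 by -3.22 and -3.19 (adjusted p = 2.97e-14 and 9.65e-17), the other 4 were not called, and the summed level was 10.21 to 10.45 in the monolayer and 9.55 to 9.83 in the sandwich. Of 12 stellate cell and fibroblast markers, 4 rose and 0 fell from day 1 to day 8 in each culture, while Glul and Oat fell, and their summed level went from 9.09 to 9.22 up to 9.69 to 10.23 in the monolayer and from 9.11 to 9.28 up to 9.59 to 10.00 in the sandwich. At day 8 1 of the 12 was higher in the sandwich and 2 lower, among them Col3a1 by -0.88 ± 0.22 (adjusted p = 0.00338, and 0.0548 with the compared groups only). Cholangiocyte markers also rose over those days, 3 of 6 in the monolayer and 2 of 6 in the sandwich. Of all 31042 probe sets, 4661 were called higher from day 1 to day 8 in the monolayer and 3589 in the sandwich. Called lower were 15.8% and 13.2%. Among all 14217 genes, 5495 and 4512 were called in either direction. Of 10 markers of endothelial cells, the source of Wnt ligands in the lobule, 2 reached the median of all values. The summed level of the 10 lay between 8.22 and 8.53 over all 8 groups. At day 8 it was 8.29 to 8.45 in the monolayer and 8.42 to 8.53 in the sandwich. Kdr, 1 of the 10 and under that median, was called higher in the sandwich at day 8. With the beta-actin covariate described next, that call was lost (0.38, adjusted p = 0.0748). The difference between the 3 prime and 5 prime probe sets of beta-actin, a sign of RNA quality, was 0.79 to 0.86 in monolayer group means and 0.94 to 1.03 in sandwich ones. The part of these shifts in the results for the 7 genes was not tested beyond a fit with the beta-actin difference as a covariate. Under that covariate Glul alone gained a call in a comparison of the cultures. Its signed change from day 1 to day 8 was higher in the sandwich by 0.35 (adjusted p = 0.0354). In that fit the sandwich step of Glul from day 2 to day 3 no longer passed (adjusted p = 0.126), while those from day 1 to day 2 and from day 3 to day 8 did (adjusted p = 0.0298 and 0.0272).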

How the data were processed

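The authors deposited log2 values per probe set of Affymetrix arrays. Of tools, the submitters' processing notes list RMA, which summarises and normalizes such arrays, and limma, giving neither role nor version. Values were used as deposited. The table holds 31099 probe sets, of which 57 controls were left out. The 31042 tested carried 1 gene symbol (20826), several (436) or none (9780). Array medians lay between 5.57 and 5.67, values between 2.61 and 15.07, and correlations between arrays of a group between 0.993 and 0.997.

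With limma 3.58.1 in R 4.3.3, each of the 8 groups received its own mean in 1 joint fit of 24 arrays. P-values were two-sided and adjusted by Benjamini-Hochberg over 31042 probe sets within each comparison, with a threshold of 0.05. Errors of differences are SE. Where the lower group mean was under 5.62, the median of all values, no fold is given. With 3 arrays per group, precision is limited by their number. On simulated data with independent noise and only a small share of probe sets changed, the day 8 comparison recovered 45% of changes of 0.5 log2 units and 96% of changes of 1. In the real comparison 8543 probe sets were called, which makes the adjusted threshold less strict. The simulated rates are therefore not the sensitivity of the real comparison.

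The members and the gene lists were chosen with earlier results of these data known. Named beside the members are the 4 genes of each list with the smallest adjusted p at day 8 (of which the text gives some), genes named whatever their values (Ctnnb1, Tcf7l2, Lgr5, Nkd1, Znrf3, Cyp2e1, Cyp1a2, Cps1, Arg1, Glud1 and Hnf4a), and the 3 most alike genes of each member. Deviations of same-numbered arrays correlated at -0.43 to 0.53 (median 0.20), over 0.1 in 56 of 84 pairs, against a median of -0.13 for other numbers. Arrays of 1 number may therefore share some structure. The labels do not say that the numbers pair arrays, so the main fit did not use them, and the replicate block among the alternatives did. The labels give no batch. Alternatives were quantile normalization, median centring, a filter at the median of all values, only the compared groups, array weights, a trended and robust variance, the replicate number as a block, the beta-actin difference as a covariate, the mean of a gene's probe sets, and leaving out each array. Their use on the list counts and named list genes was chosen after seeing the data.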

Additional observations from a re-analysis of the deposited data

Results flagged for a closer look

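For 3 genes the change from day 1 to day 8 differed between the cultures in a test of the difference itself. The signed change of Gls2 was 1.41 log2 units higher in the sandwich (adjusted p = 4.67e-08 by limma, n = 3 per group), through a rise there and a fall in the monolayer. That of Lect2 was 1.33 units higher (adjusted p = 7.01e-08), likewise in opposite directions. That of Oat was 0.56 units higher (adjusted p = 6.23e-04), through a fall in both cultures that was smaller in the sandwich.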

How the results depend on the processing

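Of 35 called values of the members, 27 were called under every alternative run, among them those of Oat, Gls2 and Lect2 at day 8, of Oat and Gls2 at day 3, and the changes from day 1 to day 8. Over 1617 recomputed values 1547 kept their side of the threshold, 38 lost the call and 32 gained one. Of called values 0 changed sign, while 82 of the 1547 did, all of them uncalled. Members called between the cultures at day 1 numbered 1 in place of 0 (Lect2) with centred arrays, the filter at the median, array weights, the trended and robust variance, the replicate block and the mean of probe sets, and at day 2 they numbered 1 with the trended and robust variance. From day 2 to day 3 in the monolayer they numbered 2 in place of 1 (Oat gained) with the filter, array weights, the trended and robust variance and the replicate block. The block left every other count of called members within 1.5 times, and 15 of 24 arrays deviated most like others of their own number. With the compared groups only, which leaves fewer arrays for the spread, members called in the sandwich numbered 1 from day 1 to day 2, 1 from day 2 to day 3 and 1 from day 3 to day 8, in place of 3, 3 and 2, and probe sets called numbered 818 for monolayer day 2 to day 3, 444 for sandwich day 2 to day 3 and 2312 for sandwich day 3 to day 8, in place of 1560, 884 and 3470. Array weights gave 933 and 3688 probe sets between the cultures at days 1 and 2 (552 and 1809 otherwise), 3578 and 3378 for the first and second monolayer steps (1556 and 1560), and 2722 and 1800 for the first and second sandwich steps (1802 and 884). The cause was not tested.

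Without 1 array, members called between the cultures ranged from 0 to 1 at days 1 and 2 (1 without sandwich day 1 replicate 2 or monolayer day 2 replicate 1). In the sandwich they ranged from 1 to 3 from day 1 to day 2 (1 without sandwich day 1 replicate 1), from 1 to 2 from day 2 to day 3 (1 without sandwich day 2 replicate 1 or 2 or day 3 replicate 1), and from 1 to 2 from day 3 to day 8 (1 without sandwich day 3 replicate 2 or day 8 replicate 1). Probe sets called ranged from 322 to 465 between the cultures at day 1 (least without monolayer day 1 replicate 2), from 982 to 1428 for monolayer day 1 to day 2 (least without monolayer day 1 replicate 1), from 791 to 1556 for monolayer day 2 to day 3 (least without monolayer day 3 replicate 3) and from 374 to 754 for sandwich day 2 to day 3 (least without sandwich day 2 replicate 2). Of the probe sets called between the cultures at day 1, 32.2% were higher in the sandwich, 43.4% with quantile normalization and 24.7% with centred arrays, and for the monolayer from day 1 to day 8 48.8% were higher, 37.9% with centred arrays. Slc1a2, 2 of the 4 Tbx3 probe sets and most endothelial markers lie below the median of all values, where background limits what can be seen.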
